A study of Homo sapiens with 4 samples.

Results

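The genes described here encode the parts of the oxidative phosphorylation system that come from the nuclear genome, as measured in MDA-MB-231 Fluc cells. They were taken from the deposited table by symbol: NDUFA, NDUFB, NDUFC, NDUFS and NDUFV with a number for complex I, SDHA to SDHD for complex II, the UQCR genes and CYC1 for complex III, COX genes of the COX4 to COX8 series for complex IV, and the ATP5 genes for complex V. The pattern found 78 of the table's 13957 genes. Of these, 36 belong to complex I, 4 to complex II, 9 to complex III, 9 to complex IV and 20 to complex V. The pattern also caught 2 processed pseudogenes, ATP5MC2P4 and ATP5MGP2, which leaves 76 protein-coding genes. GENCODE release 44 lists 83 protein-coding genes whose symbols fit the pattern, and the other 7, which are NDUFA7, ATP5MGL, COX6A2, COX6B2, COX7A1, COX7B2 and COX8C, were not analysed here.

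RNA was sequenced from 4 samples of MDA-MB-231 Fluc, a line from a triple-negative breast tumour that carries an inserted luciferase gene for imaging. The cordycepin group, with 2 samples, received 50 μM of this adenosine analogue, which lacks the 3′ hydroxyl, and the vehicle control group, also with 2, received DMSO, both for 2 h. All samples share the line and the luciferase insertion, and nothing in the labels says whether replicates came from separate cultures. The table gives for each gene a mean log2 CPM (counts scaled to library size, on a log2 scale) over the libraries, which pools treated and vehicle samples. It holds no value per library, so neither the depth of a library nor the spread between replicates is known, and no SD can be given. Its fold changes and p-values are the authors' own comparison and were not used, so nothing below compares cordycepin with DMSO. The values describe how these genes stood relative to each other and to other genes in this line.

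Complexes I to IV form the respiratory chain of the inner mitochondrial membrane. Complex I takes electrons from NADH and complex II from succinate, complex III passes them to cytochrome c, and complex IV passes them to oxygen. Complexes I, III and IV pump protons, and complex V, the ATP synthase, uses the resulting gradient to make ATP. Complexes I, III, IV and V are built from subunits of both genomes, whereas every subunit of complex II is encoded in the nucleus.

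Levels of different genes were compared per length. The level of a gene is its mean log2 CPM minus the log2 of its exonic length in kb as listed in the table, so a difference of 1 in level is a factor of 2 in CPM per kb. Over all 13957 genes the median level was 2.43, with quartiles of 0.94 and 3.88. The 78 genes had a median level of 4.90. Of them, 74 (94.9%) lay above the median of all genes and 57 (73.1%) lay above the upper quartile. Together their CPM values came to 0.717% of the sum over the table. On mean log2 CPM without length, 43 of the 78 (55.1%) were above the upper quartile.

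As a check of the labelled line, VIM (mean log2 CPM 10.45), CD44 (10.57) and EGFR (8.64), which mesenchymal-like breast tumour lines express, were among the higher genes. CDH1, the epithelial cadherin, stood at 3.68. ERBB2, which was listed as a marker that should be low, stood at 6.49, at the 81.8th percentile of the table, while ESR1 and PGR, the hormone receptors that triple-negative tumours lack, were not analysed here.

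The promoters of these genes are known targets of NRF1, GABP (an ETS factor, also called NRF2) and YY1. RefSeq promoter windows on GRCh38.p14, from 250 bases before to 50 bases after a start site, were matched for 62 of the 76 protein-coding genes. The windows were searched on both strands for GCGCANGCG (NRF1), CCGGAAG (GABP) and AAGATGG (YY1), and no match of one factor overlapped a match of another in these windows. The NRF1 motif was found in 22 of the 62 genes (35.5%), against 9.02% of all 27305 genes with a promoter window and 17.7% of the 9948 that are also in the table. The GABP motif was found in 20 (32.3%), against 12.2% and 23.2%, and the YY1 motif in 17 (27.4%), against 7.11% and 9.58%. At least 1 of the motifs was present in 43 of the 62 (69.4%), against 24.5% of all genes and 42.0% of the genes in the table. Motifs of at least 2 factors were present in 14 (22.6%), against 3.59% and 7.96%. A match is a run of letters and was not tested as a binding site.

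A gene of each complex is shown here because its window holds motifs of 2 or 3 of the factors before the start site. Capitals mark the motif letters, on either strand. The first is NDUFA5, an accessory subunit of complex I on the minus strand of chromosome 7, at chr7:123557935-123557986, from 168 to 117 bases before the start and outside annotated exons. It carries an NRF1 and a YY1 motif.
NDUFA5: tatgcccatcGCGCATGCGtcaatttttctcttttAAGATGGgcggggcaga
For complex III, UQCR11, a small accessory subunit, is shown at chr19:1605474-1605589 on the minus strand, from 127 to 12 bases before the start and also outside exons, with 2 GABP motifs followed by an NRF1 motif.
UQCR11: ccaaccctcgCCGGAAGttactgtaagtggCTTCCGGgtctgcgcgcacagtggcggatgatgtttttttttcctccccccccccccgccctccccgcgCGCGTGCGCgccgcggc

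For the other complexes the sites lie in or beside exons and are shown as short stretches. SDHD encodes a membrane anchor of complex II, and its sites are at chr11:112086753-112086781 and chr11:112086785-112086813 on the plus strand. Both stretches overlap exons of the divergent neighbour TIMM8B.
SDHD, NRF1: agctgtgtttGCGCATGCGCgacgggtgt
SDHD, GABP: ccgcctctcgaCTTCCGGttcacccagca
COX6A1, of complex IV, has an NRF1 site at chr12:120437884-120437912 and a GABP site in the 27 bases before its start, at chr12:120438086-120438112, both on the plus strand. The second stretch overlaps an exon of another COX6A1 transcript.
COX6A1, NRF1: ggagggcacaCGCATGCGCacgaaggaaa
COX6A1, GABP: ttccacttccgCTTCCGGcgctgcggc
ATP5PF, a subunit of the peripheral stalk of complex V, holds motifs of all 3 factors on the minus strand, at chr21:25735156-25735184, chr21:25735094-25735122 and chr21:25735067-25735095. These stretches lie in exons of ATP5PF transcripts with other start sites and of GABPA, the gene for a GABP subunit, which is read in the opposite direction.
ATP5PF, NRF1: cactcaaagaGCGCATGCGtacagagcaa
ATP5PF, YY1: taggcgaagaaAAGATGGcggaggctgtg
ATP5PF, GABP: tgccaggggacCCGGAAGcacttaccctc
The 5 genes had levels of 2.39 (NDUFA5), 4.35 (UQCR11), 5.30 (SDHD), 5.62 (COX6A1) and 5.10 (ATP5PF), so genes with several of these motifs ranged widely in level.

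By complex, the counts were small. Among genes with a window, at least 1 motif was found in 17 of 30 for complex I, 3 of 3 for complex II, 7 of 7 for complex III, 5 of 8 for complex IV and 11 of 14 for complex V. In complex IV, 4 of the 8 genes had a GABP match and 1 an NRF1 match, while in complex I 9 of the 30 had an NRF1 match and 5 a GABP match. Genes with and without a motif had median levels that differed by less than 1: 4.75 against 5.18 for NRF1, 5.26 against 4.78 for GABP and 4.79 against 5.22 for YY1. The levels of single genes ran from -0.15 to 8.38.

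The 5 complexes differed in level. Complex IV was highest, with a median of 5.75, and complex III followed with 5.22 and complex V with 5.09. Complex II had a median of 4.52 and complex I the lowest, 4.09. All 9 genes of complex IV lay above the upper quartile of the table, as did 8 of 9 in complex III, 17 of 20 in complex V, 3 of 4 in complex II and 20 of 36 in complex I. The 4 genes at or below the median of all genes were all in complex I. The complexes overlapped widely all the same, since single genes of complex I reached 7.67 and those of complex III fell to 3.02. Genes are not replicates of a complex, so these medians carry no test.

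**Figure D1:**
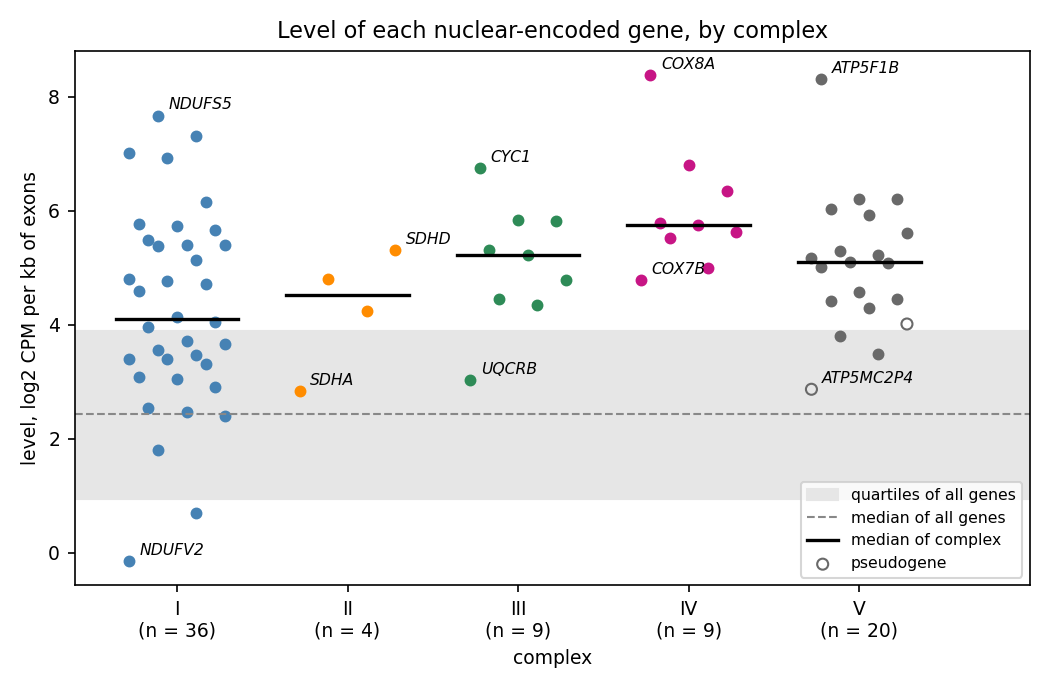
Level of each of the 78 genes in log2 CPM per kb of exons, by complex. Points are genes, open circles the 2 pseudogenes, black lines the complex medians (4.09 for complex I to 5.75 for complex IV), and the grey band the quartiles of all 13957 genes (0.94 to 3.88).

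The order of the complexes depended on the length used. Exonic length counts every base that any transcript of a gene covers, and for these genes it had a median of 2316 bases, whereas the canonical transcript, the one Ensembl selects to represent the gene, had a median of 781 bases. With the canonical transcript the medians were 6.98 for complex IV, 6.81 for complex V, 5.87 for complex I, 5.87 for complex II and 5.70 for complex III. Complex I, lowest by exonic length, was then above complex III. With no division by length, mean log2 CPM had medians of 6.46 (IV), 6.41 (III), 6.25 (V), 6.07 (II) and 5.63 (I). Complex IV was highest on each of these scales and with the longest transcript. Without length, though, its 6.46 and the 6.41 of complex III were closer than the 0.1 counted below as moved. As no replicate spread is known, the order of the complexes is not settled by these data. Across the 76 genes, level by exonic length and level by canonical transcript had a Spearman's rho of 0.76, and the points share one CPM value, so this describes only how far the length matters. Level had a rho of -0.70 with exonic length, by which it is divided, and of 0.58 with mean log2 CPM. Between mean log2 CPM and exonic length rho was 0.08. The rank of a single gene by level thus follows its annotated length in large part.

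**Figure D2:**
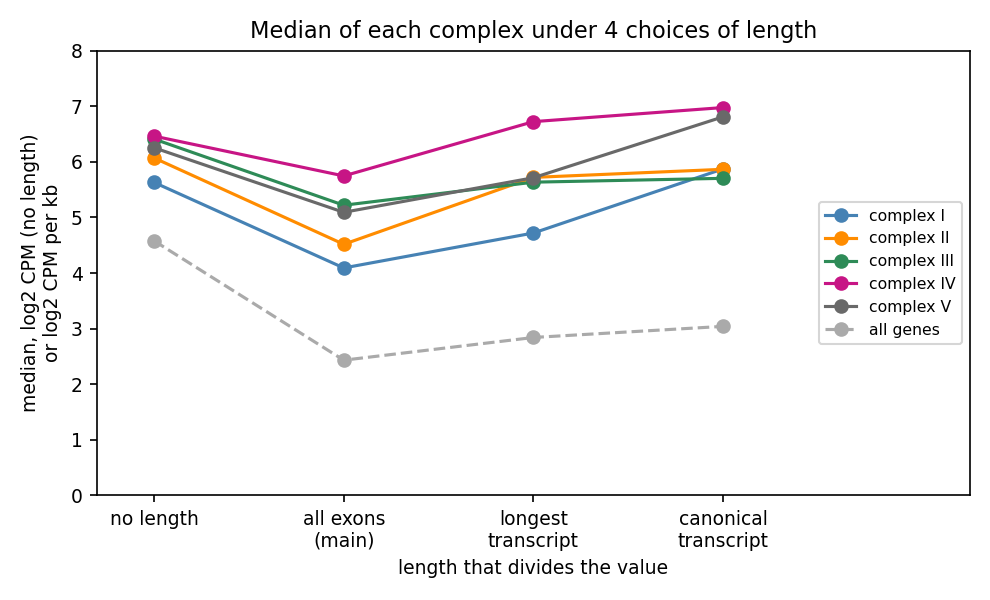
Median of each complex and of all genes under 4 choices of length, in log2 CPM (no length) or log2 CPM per kb. Complex IV is highest under all 4, but with no length only by 6.46 against 6.41 for complex III. Complex I moves from the lowest by all exons (4.09) to above complex III by canonical transcript (5.87 against 5.70).

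Short transcripts are a shared feature of the set. The canonical transcript was under 1000 bases in 44 of the 76 protein-coding genes (57.9%), against 5.31% of the 11603 protein-coding genes in the table. Its median of 781 bases compares with 3445, and its median of 4 exons with 9. The extremes were ATP5ME, with 303 bases, and NDUFS1, with 11660. ATP5ME was named after its value was seen.

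Complex I has a core of subunits shared with its bacterial relatives, among them those that hold the flavin and the iron-sulphur clusters, and a larger number of accessory subunits. The 7 core subunits encoded in the nucleus had a median level of 4.14, and the 29 accessory subunits 4.05. By canonical transcript the order was reversed, at 5.77 for the core and 5.98 for the accessory subunits. In mean log2 CPM the medians were 6.46 and 5.60. NDUFV1, which binds NADH and the flavin, was the highest core gene at 5.39 (mean log2 CPM 7.73). NDUFS8, which holds iron-sulphur clusters, stood at 4.76 and NDUFS3 at 4.14. NDUFS1, the largest iron-sulphur subunit, had a mean log2 CPM of 6.91 but a level of 3.30, as its exonic length is 12174 bases. NDUFS7, which holds the last cluster before ubiquinone, stood at 2.47. Its exonic length is 7456 bases, against 758 for its canonical transcript, by which its level was 5.77. Of that transcript, 51.3% lies opposite exons of genes on the other strand, and whether this bears on its value was not tested.

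NDUFV2, the iron-sulphur partner of NDUFV1, was the lowest of all 78 genes. Its mean log2 CPM was 1.29 and its level -0.15, which placed it at the 11.7th percentile of the table. NDUFV1 and NDUFV2 belong to the same NADH-oxidising module, and their levels differed by 5.54 on the log2 scale. However, 90.0% of the canonical transcript of NDUFV2 lies in exons of another gene on the same strand. Its pseudogene NDUFV2P1 had a mean log2 CPM of 5.25. How reads shared between such genes were assigned is not given, so the value of NDUFV2 and this difference are uncertain. The gene lies at 9102630 to 9134345 on chromosome 18 (GRCh38, coordinates as in the table).

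Among the accessory subunits, the highest were NDUFS5 (7.67, on chromosome 1), NDUFA1 (7.30, on the X chromosome) and NDUFB7 (7.01, on chromosome 19). Their exonic lengths were 548, 421 and 535 bases, among the shortest of the set. The lowest were NDUFA9, at 0.69, and NDUFA13, at 1.81. NDUFA9 had an exonic length of 10391 bases and a mean log2 CPM of 4.07. The other 24 accessory genes ran from 2.39 for NDUFA5 to 6.92 for NDUFS6. NDUFA4, which is listed with complex I by name but is now counted with complex IV, had a level of 3.65.

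NDUFAB1, the mitochondrial acyl carrier protein that is also a subunit of complex I, has a symbol outside the pattern and stood at 5.05. NDUFA4L2 and the readthrough gene NDUFC2-KCTD14 were not analysed here.

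Complex II, succinate dehydrogenase, joins the citric acid cycle to the chain. SDHD, a membrane anchor, had the highest level at 5.30, followed by the iron-sulphur subunit SDHB (4.79), the other anchor SDHC (4.24) and the flavin subunit SDHA (2.83). The 4 genes were much closer in mean log2 CPM, with 6.78 for SDHD, 6.13 for SDHC, 6.01 for SDHB and 5.96 for SDHA. SDHB and SDHA thus differed by 0.05 before and 1.97 after division by length. The exonic length of SDHA was 8765 bases, against 2693 for its canonical transcript, and on the canonical scale its level was 4.53 and that of SDHB 5.99.

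Complex III, the cytochrome bc1 complex, was led by CYC1, which encodes cytochrome c1, with a level of 6.75. The core proteins differed, with UQCRC1 at 5.83 and UQCRC2 at 4.44, a difference of 1.39. UQCRH, the hinge protein beside cytochrome c1, stood at 5.81. UQCRFS1, the Rieske iron-sulphur protein, which was named after its value was seen, stood at 4.79, and UQCRQ and UQCR10 lay between it and UQCRH. The lowest were UQCRB (3.02), UQCR11 (4.35) and UQCRC2. UQCRB, in a gene with an exonic length of 12600 bases, had a mean log2 CPM of 6.68, behind CYC1 and UQCRC1 only. CYCS, the gene for cytochrome c, which carries electrons from complex III to complex IV, is outside the pattern and stood at 5.83 (mean log2 CPM 8.37).

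Complex IV, cytochrome c oxidase, had a narrower range of mean log2 CPM than complexes I, III and V, from 6.04 to 7.36. By level, COX8A was the highest of all 78 genes at 8.38, followed in the complex by COX5A (6.80) and COX6B1 (6.35). The lowest were COX7B (4.78), COX6C (4.99) and COX7A2 (5.52), and COX7C and COX5B lay between, at 5.75 and 5.78. Several of these subunits have a second gene for a form used in heart and skeletal muscle or in testis. The widely expressed forms COX6A1 (5.62), COX6B1, COX7A2, COX7B and COX8A all had values, and the tissue-restricted forms COX6A2, COX6B2, COX7A1, COX7B2 and COX8C were not analysed here. COX4I1, the common form of subunit IV, is missed by the pattern and had a level of 4.92 with a mean log2 CPM of 7.19, close to the 7.36 of COX8A. COX7A2L, which takes part in joining complexes III and IV, stood at 3.53, and COX4I2 was not analysed here.

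Complex V, the ATP synthase, consists of the catalytic F1 head, a peripheral stalk and a membrane part with the rotating c-ring. The 5 F1 genes had a median level of 5.92, the 4 stalk genes 4.84 and the 8 genes of the membrane part 5.09. By canonical transcript these medians were closer, at 6.84, 6.63 and 6.77. In mean log2 CPM, without length, they were 7.40, 6.20 and 6.17. ATP5F1B, which encodes the catalytic beta subunit, had the highest mean log2 CPM of all 78 genes, 9.46, and a level of 8.30. ATP5F1A, for the alpha subunit that alternates with beta in the head, was close by in mean log2 CPM, at 9.37. Its exonic length of 10908 bases gave it a level of 5.92, which is 2.38 below ATP5F1B, and on the canonical scale it was 1.81 below. The gamma subunit gene ATP5F1C stood at 6.20, the delta subunit gene ATP5F1D at 5.61 and the epsilon subunit gene ATP5F1E at 4.41.

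The mature c subunit is one protein encoded by 3 genes whose products differ in the targeting sequence that is removed on import. ATP5MC3 supplied 55.0% of their summed CPM, ATP5MC1 25.8% and ATP5MC2 19.2%. Per kb of exons the order changed, with levels of 5.30 for ATP5MC1, 5.02 for ATP5MC3 and 4.29 for ATP5MC2. ATP5MC1 was then 43.1% of the sum and ATP5MC3 35.5%. By canonical transcript it changed again, with 7.32 for ATP5MC1, 6.92 for ATP5MC2 and 6.41 for ATP5MC3. The exonic length of ATP5MC3 was 6780 bases, against 2615 for ATP5MC1.

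The other high member of complex V was ATP5MD, a small membrane subunit now named ATP5MK, at 6.21. The lowest were the pseudogene ATP5MC2P4 (2.86), the stalk gene ATP5PO (3.49) and ATP5MPL (3.80), a membrane subunit now named ATP5MJ. The remaining 8 genes of the complex ran from 4.01 for the pseudogene ATP5MGP2 to 6.03 for the stalk gene ATP5PB. ATP5IF1, the inhibitor that stops the synthase from running backwards, was among them, at 5.09.

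The 13 subunits encoded in mitochondrial DNA, which the cell joins with these nuclear subunits, had levels from 10.60 to 12.80. By level, the lowest of them was 2.22 above COX8A, the highest nuclear gene, and their median was 6.93 above that of the 76 nuclear genes. This gap depended on the length used. By canonical transcript the medians were 11.94 for the mitochondrial and 6.28 for the nuclear genes, and in mean log2 CPM 11.11 and 6.17. Without division by length the 2 sets also overlapped, with MT-ND3 at 9.40 and ATP5F1B at 9.46.

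Several nuclear genes share exons with another annotated gene on the same strand. By GENCODE release 44, 6 of the 76 protein-coding genes (7.89%) share 50% or more of the bases of their canonical transcript, against 2.51% of the protein-coding genes in the table. A further 11 share some bases and 59 share none. All 6 had a mean log2 CPM below the median of the 76, which was 6.17, as did 26 of the 59 that share none. The median of mean log2 CPM was 4.78 for the 6, 6.04 for the 11 and 6.25 for the 59. In the protein-coding genes of the table that are not among these 76, the same 3 classes had medians of 2.83, 4.57 and 5.03.

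NDUFV2 had the largest share, 90.0% of its canonical transcript, with the lncRNA gene ENSG00000265257. NDUFA13, which is also known as GRIM-19, shared 83.9% and had a mean log2 CPM of 3.24. The values of NDUFB8 (72.0% shared, mean log2 CPM 4.40), SDHA (69.4%, 5.96), NDUFA11 (68.2%, 5.19) and ATP5PO (63.8%, 5.15) were higher. NDUFB8 and NDUFA11 were named after their values were seen. Of the 6 partner genes, only the partner of NDUFA13, ENSG00000258674, had a value, a mean log2 CPM of 0.95. How reads in exons of 2 genes were counted is not given in the sources used here, and the part this plays in the low values was not tested. Without the 17 genes that share any exon the median level of complex I was 4.78 in place of 4.09. This was above the 4.52 of complex II, so that complex I was then no longer the lowest. SDHA and SDHD are among the genes left out, so that the complex II median rested on SDHB (4.79) and SDHC (4.24) alone.

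**Figure D3:**
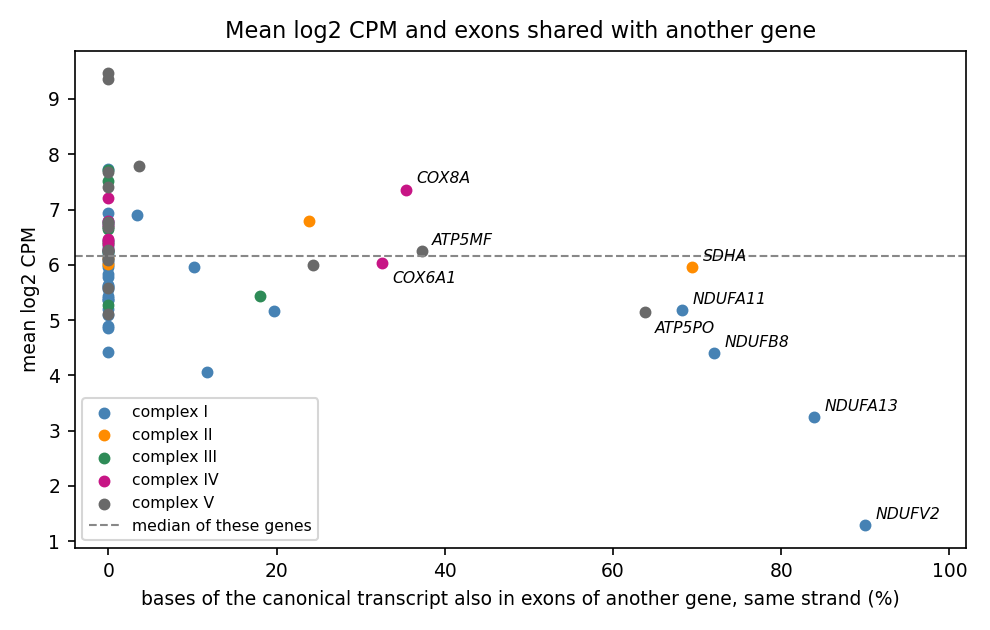
Mean log2 CPM of the 76 protein-coding genes against the percentage of the canonical transcript that lies in exons of another gene on the same strand. The 6 genes at 50% or more all lie below the median of 6.17 (dashed line), from SDHA at 5.96 to NDUFV2 at 1.29.

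Many of these genes also have pseudogenes, most of them processed, which are copies of a spliced RNA inserted elsewhere in the genome. GENCODE lists 186 pseudogenes named after 48 of the 76 genes, and 20 of them, named after 17 genes, had a value. Of the 20, SDHAP1 and SDHAP3 are unprocessed. For 18 of the 20, the mean log2 CPM, without division by length, was below that of the parent gene. The exceptions were NDUFV2P1, on chromosome 19, with 5.25 against 1.29 for NDUFV2, and COX6A1P2, on chromosome 6, with 6.12 against 6.04 for COX6A1. Per kb of exons, 6 of the 20 lay above the parent gene, as they also did when the parent was divided by the length of its canonical transcript. They were NDUFV2P1, by 5.54 in level, COX6A1P2 (2.10), ATP5F1EP2 (2.30), NDUFA5P11 (1.31), UQCRBP1 (0.88) and UQCRFS1P1 (0.78). Of the CPM that NDUFV2 and NDUFV2P1 had together, 94.0% was assigned to the pseudogene. COX6A1P2 held 51.4% of the CPM of its pair, UQCRFS1P1 31.4%, SDHAP1 15.4% and ATP5F1EP2 13.2%. Each of the other 15 pseudogenes held less than 10% of its pair.

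At the other end, ATP5F1A had a mean log2 CPM of 9.37, and its pseudogenes ATP5F1AP2 and ATP5F1AP3 had 1.16 and 1.10. A pseudogene can share most of its sequence with the parent, and how reads that map to both were assigned is not given in the sources used here. The values of these pairs, among them the 2 pseudogenes caught by the pattern, are therefore uncertain.

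**Figure D4:**
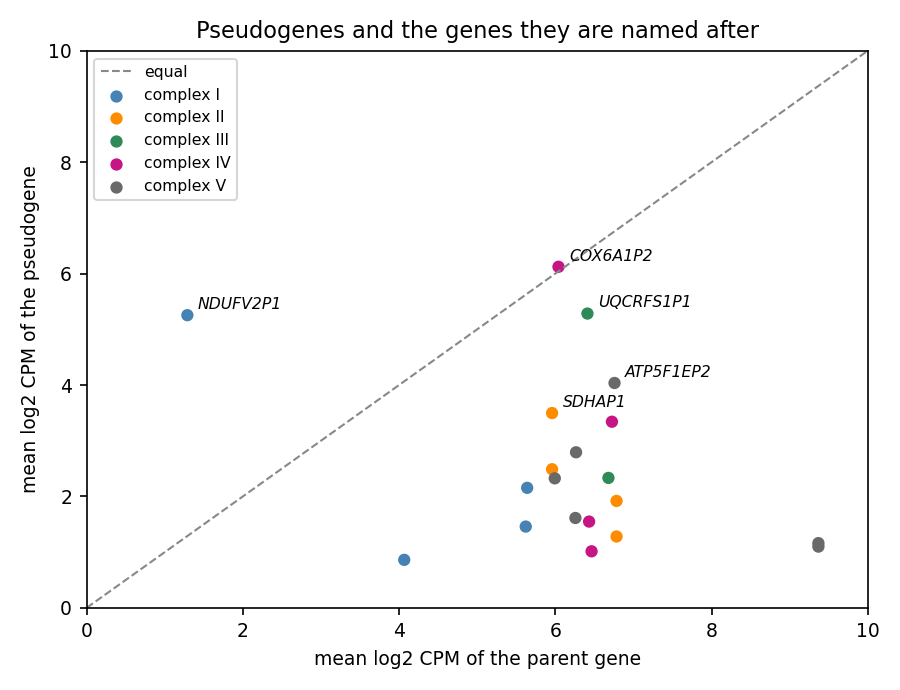
Mean log2 CPM of 20 pseudogenes against that of the gene each is named after; the dashed line marks equal values. NDUFV2P1 (5.25 against 1.29) and COX6A1P2 (6.12 against 6.04) lie above the line and the other 18 below it on this scale, which is not divided by length; per kb of exons 6 of the 20 are above their parent.

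The genes lie on 22 chromosomes, with at most 9 on 1 of them, chromosome 19. A shared start region was frequent: 20 of the 76 (26.3%) have a protein-coding neighbour on the opposite strand that starts within 1000 bases upstream, against 11.4% of the protein-coding genes in the table and 8.54% of all in GENCODE. In 18 of the 20 the starts were within 200 bases. The closest pairs were SDHD with TIMM8B, which encodes an import chaperone, 26 bases apart, and NDUFA3 with OSCAR, 36 bases apart. Next came NDUFB5 with MRPL47 and NDUFS6 with MRPL36, both neighbours being genes for mitochondrial ribosomal proteins, 41 bases apart in each pair. The levels within such pairs could lie on either side, with 6.92 for NDUFS6 and 4.68 for MRPL36 but 3.40 for NDUFB5 and 5.44 for MRPL47. The median level was 4.29 for the 20 genes with such a neighbour and 5.05 for the 56 without. The 4 pairs named are those with the closest starts.

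Assembly factors build the complexes but are not part of them. Of 60 listed factor genes, 56 had a value, and UQCC4, UQCC5, UQCC6 and SCO2 were not analysed here by those symbols. The factors had a median level of 2.61, near the 2.43 of all genes, and 54 of the 56 lay below the median of the 78 subunit genes. The gap between subunits and factors was 1.00 for complex I, 1.79 for complex III, 2.53 for complex II, 3.34 for complex IV and 4.03 for complex V. By canonical transcript the gaps were 1.80, 1.08, 3.48, 3.82 and 4.16 in the same order, so the smallest was then in complex III. In mean log2 CPM the subunit and factor medians were 5.63 and 5.06 for complex I and 6.41 and 5.39 for complex III. They were 6.07 and 2.63 for complex II, 6.46 and 4.42 for complex IV and 6.25 and 3.29 for complex V. The widest gap without length was thus in complex II and the smallest in complex I. By level, 22 of the 23 factors of complex IV were below COX7B, the lowest subunit.

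Factors overlapped the range of the subunits in complexes I to IV. Below the lowest subunit were 0 of 18 factors in complex I, 3 of 4 in complex II, 2 of 6 in complex III and 22 of 23 in complex IV. In complex V the highest factor, ATPAF1, was below ATP5PO (3.49), the lowest protein-coding gene of that complex. The complex I factors had a median of 3.09. The highest of them were NDUFAF2 (5.09) and NDUFAF8 (4.80), and 13 of 18 were below the complex I median. In complex II, SDHAF3 stood at 3.59, while SDHAF1, SDHAF2 and SDHAF4 lay between 1.88 and 2.01. The 6 factors of complex III covered a narrow range, from 2.68 for LYRM7 to 3.73 for UQCC1. Among the factors of complex IV, COA4 was highest at 4.93 and COX20 lowest at -0.54. For complex V, ATPAF1, which binds the beta subunit, stood at 3.29 and ATPAF2, which binds alpha, at 0.82.

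**Figure D5:**
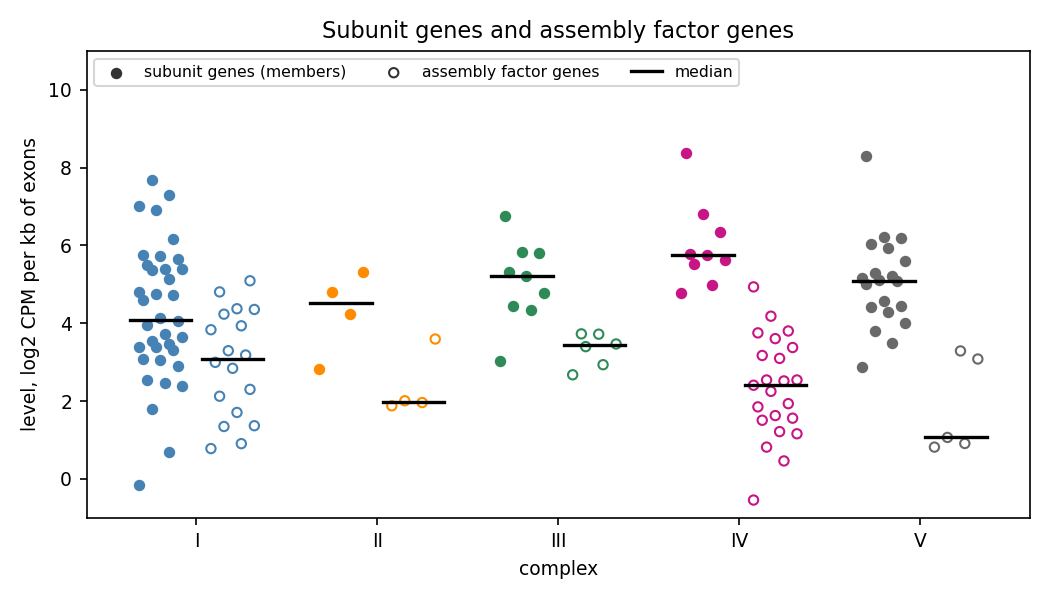
Level of subunit genes (filled) and assembly factor genes (open) of each complex, in log2 CPM per kb of exons, with black lines at the medians. The factor medians (1.07 to 3.43) lie below the subunit medians (4.09 to 5.75) in all 5 complexes, with the smallest gap, 1.00, in complex I on this scale and in complex III, 1.08, by canonical transcript.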

How the data were processed

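RNA from 4 samples was sequenced by the authors as stranded, ribosomal RNA-depleted paired-end libraries. The study's methods state mapping to GRCh38.p13 and counting with rsubread, and the submitters' processing notes name TopHat, HTSeq, DESeq, Cufflinks and hg38; which tools made the table is not given. The authors' deposited table holds a mean log2 CPM and an exonic length per gene, used here, and for cordycepin against vehicle its F statistic, log2 fold change, p-value and FDR, which were not used. It holds 0 columns of values per sample, so depth per sample is unknown, no interval can be given and no test was made.

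Levels were mean log2 CPM minus log2 of length in kb. GENCODE release 44 gave gene types, transcripts and overlaps; 13922 of 13957 IDs matched, and 69 of the 78 genes had the same start and end. RefSeq (GRCh38.p14) gave promoters. Among the genes with no matched promoter were ATP5F1B, ATP5F1D, ATP5MC3, ATP5MF, COX6C, CYC1, NDUFA4, NDUFB5, NDUFB9, NDUFC2, NDUFS5, SDHC and UQCRB. Named genes were the highest and lowest 3 of complexes I, III, IV and V, all of complex II, the core subunits of complex I, the F1 and c-ring genes, isoform pairs, subunits missed by the pattern, pseudogenes and assembly factors. Some results for single genes that this rule names are left out. The members and lists were chosen with earlier results of these data known. Calculations were made in Python (3.11.15) with pandas 2.3.3, numpy 2.4.6 and scipy 1.17.1, and figures with matplotlib 3.10.9. Simulated shifts in level were recovered, but the division by length fixes that outcome, so it checks only the arithmetic.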

Additional observations from a re-analysis of the deposited data

How the results depend on the processing

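No paired analysis was possible because the table gives each gene 1 mean over the libraries, and for the same reason no replicate could be left out. A median that moved by over 0.1 on the log2 scale was counted as moved, as no replicate spread is known. For complexes I, II, III, IV and V in turn, the medians were 5.63, 6.07, 6.41, 6.46 and 6.25 without length, 4.72, 5.72, 5.64, 6.72 and 5.72 with the longest transcript, and 5.87, 5.87, 5.70, 6.98 and 6.81 with the canonical transcript, which was chosen after seeing the data. The mean over genes was 4.26 for complex I, 4.29 for complex II, 5.06 for complex III and 5.996 for complex IV. Leaving out genes that share exons, also chosen after seeing the data, gave 4.78 for complex I, above complex II, whose median then rested on SDHB and SDHC alone. Other choices moved a median by 0.1 or less: NDUFA4 counted with complex IV, genes under the lower quartile of mean log2 CPM left out, and the pseudogenes left out. The share of genes above the median of all genes stayed between 91.0% and 94.9%. Among genes in the table, the NRF1, GABP and YY1 motifs were found in 17.7%, 23.2% and 9.58%, against 9.02%, 12.2% and 7.11% of all genes with a promoter window. Unknown depth limits every value.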
